A study of Mus musculus with 4 samples.

Results

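Single kidney cells from mice given ruxolitinib were set against those from mice given vehicle in an antibody-driven glomerulonephritis, with weight on lymphocytes, dendritic cells and the distal tubule. A cell barcode was taken when its suffix named the ruxolitinib or the vehicle library and it had at least 200 detected genes, which gave 3979 ruxolitinib and 3930 vehicle cells, 7909 of the 15777 kept cells of the series. All mice were 9-week-old C57Bl/6 males carrying the Pax2.rtTA;TetO.Cre;R26.Confetti reporter, in which a Pax2-driven transactivator switches on Cre and thereby a fluorescent colour in Pax2-lineage epithelium, and all received anti-glomerular basement membrane (anti-GBM) serum, the vehicle mice included. From day 1 they received vehicle (distilled water), ruxolitinib at 60 mg/kg, panobinostat at 15 mg/kg or givinostat at 10 mg/kg. The last 2 are histone deacetylase inhibitors. Kidneys were taken at day 7. Each group had 2 animals and 1 library, and the labels used here do not say whether the animals were pooled.

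Ruxolitinib inhibits the kinases JAK1 and JAK2. These kinases sit under the receptors for interferons, for interleukins that signal through the common gamma chain or gp130, and for several growth factors, and they phosphorylate STAT proteins that then enter the nucleus. Cish and the Socs genes are STAT targets that feed back on the same receptors, so their RNA is often read beside pathway activity. In the inflamed kidney, T cells with a type 17 program make IL-17A and IL-17F, dendritic cells carry antigen and mature under inflammatory signals, and the distal nephron adjusts sodium, calcium and magnesium through NCC (Slc12a3), TRPV5 and calbindins.

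With 1 library a side there is no replicate error, so no test was made. Every interval below is an exact 95% interval for counting error only, and animal, dissociation and library effects cannot be told apart from treatment. Intervals of gene levels take UMIs as independent, although for some genes 1 cell held a large part of them. A gene's level is its UMI count over all cells of a class divided by all UMIs of those cells, in CPM. A gene was measured in a class when its mean level was at least 20 CPM with at least 20 UMIs in both libraries together, and it is counted as higher or lower past 1.5-fold on log2(CPM + 5).

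The libraries were alike in depth, with 42882138 UMIs from ruxolitinib and 40627826 from vehicle and medians of 8370 and 7957.5 UMIs a cell. The vehicle cells had the larger median mitochondrial share, 11.4% against 9.34%. Only 3 barcodes occurred in both libraries. Erythroid-like cells numbered 142 with ruxolitinib and 6 with vehicle, and haemoglobin RNA made up 0.322% and 0.104% of T-like UMIs, 0.0519% and 0.00221% of dendritic-like UMIs, and 0.0126% and 0.00200% of distal convoluted tubule-like UMIs. Its part in the results was not tested. Tpm3-rs7 stood at 53.8 CPM with ruxolitinib and 53.8 CPM with givinostat, but at 4.14 CPM with vehicle and 3.96 CPM with panobinostat. Gm10036 had the opposite split, with 6.44 and 6.26 CPM against 31.7 and 24.5 CPM, so the vehicle and ruxolitinib libraries lie on different sides of a library pair that cannot be told apart from treatment. Every cell class checked against its markers had each marker above the level of all other cells in both libraries, and no marker was at 0. The same markers had named the classes, so this describes the naming and is no independent check of it.

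T-like cells made up a smaller share of the ruxolitinib library, while dendritic-like cells held nearly the same share. There were 574 T-like cells with ruxolitinib and 735 with vehicle, which is 14.4% against 18.7% of kept cells and a ratio of 0.771 (0.690 to 0.861). With erythroid-like cells left out the ratio was 0.799 (0.715 to 0.892). Leukocyte-like cells as a whole stood at 34.7% and 35.2%, while other leukocyte classes were larger: monocyte-like cells were 5.35% against 3.54% (ratio 1.51, 1.22 to 1.89), and B or plasma-like cells 1.73% against 0.483% (ratio 3.59, 2.13 to 6.31). NK-like cells, the cytotoxic innate lymphocytes, were 65 and 55, and their ratio of 1.17 (0.803 to 1.70) spans 1. Dendritic-like cells numbered 178 and 175, with a ratio of 1.00 (0.811 to 1.24).

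Within the T-like cells the subsets differed in opposite directions. The type 17 T-like cluster held 48 ruxolitinib and 135 vehicle cells, 8.36% against 18.4% of T-like cells (ratio 0.455, 0.320 to 0.637). Naive or central T-like cells, which circulate through lymphoid organs, were 26.3% against 15.8% (ratio 1.67, 1.30 to 2.14). Gamma-delta T-like cells outside the type 17 program were 15.9% against 21.0% (ratio 0.757, 0.577 to 0.987), and type 17 gamma-delta cells 16.2% against 17.4% (ratio 0.930, 0.705 to 1.22). CD4 helper-like and CD8-like cells numbered 91 and 100 with ruxolitinib and 100 and 102 with vehicle. Of all kept cells, type 17 T-like cells were 1.21% with ruxolitinib, 3.44% with vehicle, 0.182% with panobinostat and 1.70% with givinostat, so the vehicle library had the highest share of the 4.

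**Figure D1:**
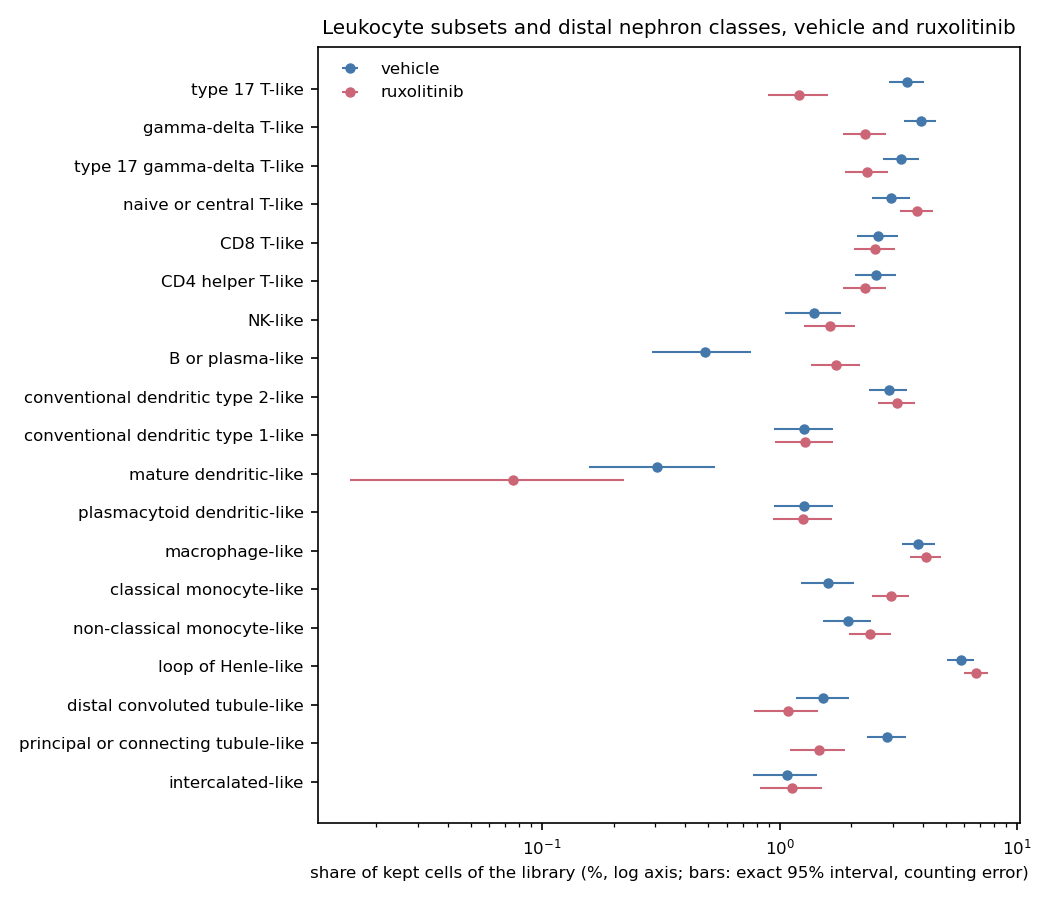
Share of kept cells (horizontal log axis, percent) of each leukocyte subset and distal nephron class in the vehicle (blue) and ruxolitinib (red) library; points are the measured shares and bars the exact 95% interval for counting error. Type 17 T-like cells stand at 3.44% and 1.21% and B or plasma-like cells at 0.483% and 1.73%, while the conventional and plasmacytoid dendritic-like points nearly coincide.

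Shares of T-like cells holding a UMI, which do not use the borders between subsets, differed in the same directions. The T-like class is made of those subsets, and the genes below are among the markers that named them. These shares are therefore not independent of the subset shares. A UMI of Il17a, which encodes the cytokine IL-17A, was found in 15.9% of ruxolitinib and 22.4% of vehicle T-like cells, and in 14.8% and 21.4% after every cell was thinned to 3723 UMIs. Il17f, its paralogue, was found in 7.14% and 11.8% (6.45% and 11.4% thinned). In proximal tubule-like cells, which should lack both, the shares were 0.511% and 0.778% for Il17a and 0.398% and 0.445% for Il17f at median depths of 10385 and 9773 UMIs against 5247.5 and 4690 in T-like cells. Lef1, a transcription factor of naive T cells, was found in 46.0% of ruxolitinib and 31.3% of vehicle T-like cells (36.1% and 27.6% thinned), and Ccr7, the lymph node homing receptor, in 30.3% and 21.1% (26.5% and 19.2%).

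Levels in the summed T-like cells differed for few genes. Of 5415 measured genes, 82 were higher with ruxolitinib (1.51%) and 47 lower (0.868%), and the median log2 ratio of all measured genes was 0.05. Of 13 measured type 17 genes 4 were lower and none higher, with a median of -0.20; of 8 naive and central T genes 3 were higher and none lower, with a median of 0.53. Il17f stood at 104 CPM with vehicle and 51.3 CPM with ruxolitinib, a ratio of 0.493 (0.409 to 0.593), whereas Il17a stood at 513 and 516 CPM. Tmem176b, a membrane protein gene on the type 17 list, was lower at 359 and 212 CPM, and 97.7% and 95.7% of proximal tubule-like cells also held a UMI of it. Lef1 was higher at 131 and 226 CPM (ratio 1.73, 1.54 to 1.94), as was S1pr1, which guides exit from lymph nodes, at 153 and 245 CPM. When the ruxolitinib clusters were weighted to the vehicle's mix, no type 17 gene and no naive gene was past 1.5-fold, and the medians were 0.02 and 0.33. So weighted, 65 of the 5415 measured genes were higher and 20 lower. In sums over a class, fewer cells of a subset and less RNA per cell cannot be told apart.

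Inside the type 17 subsets neither Il17a nor Il17f was past 1.5-fold. In single subsets more genes were past 1.5-fold than in the T-like sum: 11% of measured genes were higher and 8.4% lower in type 17 T-like cells, and 9.22% and 4.91% in type 17 gamma-delta cells. In type 17 T-like cells Il17a stood at 1390.0 CPM with vehicle and 1984 CPM with ruxolitinib (ratio 1.43, 1.28 to 1.59), although 1 cell held 18.6% of the ruxolitinib UMIs. In type 17 gamma-delta cells it stood at 1669 and 2197 CPM (ratio 1.32, 1.21 to 1.43). Il17f stood at 385 and 256 CPM in type 17 T-like cells (ratio 0.664, 0.502 to 0.869), with 25.7% of the ruxolitinib UMIs in 1 cell, and at 231 and 184 CPM in type 17 gamma-delta cells (0.797, 0.608 to 1.04). Il23r, the receptor subunit that sustains the program, was at 40.1 and 40.2 CPM, and Ccr6, the chemokine receptor of these cells, at 222 and 194 CPM in type 17 T-like cells. The summed Il17a levels were thus not below vehicle in either subset, and the Il17f interval in type 17 gamma-delta cells spans 1.

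No STAT feedback gene was past 1.5-fold in summed T-like cells, and 7 of 14 measured STAT5 targets stood above vehicle. Cish, a STAT5-induced inhibitor of cytokine receptors, stood at 177 CPM with vehicle, 125 with ruxolitinib, 102 with panobinostat and 154 with givinostat, and the ratio of ruxolitinib to vehicle was 0.706 (0.622 to 0.800). Socs1, which blocks JAK kinases directly, stood at 172 and 132 CPM (ratio 0.769, 0.680 to 0.871). Socs3, which acts on gp130 receptors, was at 192 and 178 CPM, and Pim1, a STAT-induced kinase, at 863 and 825 CPM. Bcl2, a survival gene downstream of common gamma chain cytokines, was at 217 and 308 CPM (ratio 1.42, 1.29 to 1.56), opposite to Cish. None of 14 measured STAT5 targets and none of 10 JAK or STAT factors was past 1.5-fold, with medians of 0.00 and 0.15; Jak1 was at 477 and 531 CPM.

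The Cish ratio varied over the T subsets. Of all measured genes 8.59% were higher and 6.28% lower in CD4 helper-like, 9.38% and 4.54% in gamma-delta T-like, and 10.6% and 4.2% in CD8-like cells. Of 12 measured STAT5 targets in CD4 helper-like cells 4 were lower and none higher, with a median of -0.21. In CD8-like cells 2 of 12 were lower and none higher, and in gamma-delta T-like cells 1 of 14 was lower and 1 higher. In type 17 T-like cells 1 of 12 was lower and 2 higher, and in type 17 gamma-delta cells 1 of 14 was lower and none higher. In CD4 helper-like cells Cish stood at 259.9 CPM with vehicle and 135 CPM with ruxolitinib (ratio 0.519, 0.385 to 0.695), and in gamma-delta T-like cells at 129 and 81.1 CPM (0.630, 0.429 to 0.910). In type 17 T-like cells it was 304 and 329 CPM (1.08, 0.835 to 1.40), in type 17 gamma-delta cells 269 and 242 CPM (0.898, 0.706 to 1.14), in CD8-like cells 66.6 and 76.7 CPM, and in naive or central T-like cells 45.4 and 39.6 CPM. The CD4 helper-like cluster also held regulatory T markers: of 7 measured ones none stood above vehicle and 2 were lower, with a median of -0.30 against 0.02 for all measured genes. Foxp3, the regulatory T cell factor, was 59.7 and 42.5 CPM (0.712, 0.396 to 1.26), and Il10, which some of these cells secrete, was 127 and 1.85 CPM from 66 and 1 UMIs, with 33.3% of the vehicle UMIs in 1 cell. Their part in the Cish difference was not tested. The subsets with the most Cish after ruxolitinib were the 2 type 17 ones. Socs1 had another distribution: it was lower in type 17 T-like cells, at 233 and 143 CPM (0.612, 0.419 to 0.876), and type 17 gamma-delta cells, at 241 and 158 CPM (0.653, 0.492 to 0.862), but stood at 80.9 and 122 CPM in CD4 helper-like cells (1.51, 1.01 to 2.28). Whether the ratios differ between subsets was not tested. Icos, a costimulatory receptor, stood at 637 and 412 CPM in CD4 helper-like cells (0.646, 0.543 to 0.768).

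Granzyme B was the T-like effector gene with the largest ratio among the cytotoxic effectors named here. Gzmb, a protease released into target cells, stood at 42.9 CPM with vehicle, 176 with ruxolitinib, 76.7 with panobinostat and 156 with givinostat, a ratio of 4.10 (3.43 to 4.91) for ruxolitinib. It was found in 15.5% of ruxolitinib and 7.62% of vehicle T-like cells (14.1% and 6.94% thinned), against 0.568% and 0.389% of proximal tubule-like cells. By subset it stood at 96.2 and 626 CPM in CD8-like cells (6.51, 4.85 to 8.88) and at 65.0 and 371 CPM in gamma-delta T-like cells (5.70, 4.18 to 7.91). In CD4 helper-like cells it was 65.5 and 9.24 CPM from 34 and 5 UMIs, and in NK-like cells 1046 and 1119 CPM. The higher Gzmb thus lay in CD8 and gamma-delta T-like cells. Ccl4, a chemokine of activated lymphocytes, was 1195 and 1824 CPM in CD8-like cells and 375 and 746 CPM in gamma-delta T-like cells, while Ifng, the gene for interferon-gamma, was 353 and 366 CPM in CD8-like cells. Of 18 measured cytotoxic effectors in T-like cells, 4 were higher and 1 lower, with a median of 0.08. Weighting to the vehicle's mix of clusters left 4 higher and none lower, where 65 of 5415 measured genes were higher and 20 lower. The effector lower without weighting was Xcl1, which attracts cross-presenting dendritic cells, at 554 and 320.2 CPM (0.578, 0.536 to 0.622). Gzma, another granzyme, was 92.0 and 181 CPM in T-like cells, with 18.3% and 17.9% of its UMIs in 1 cell of each library.

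**Figure D2:**
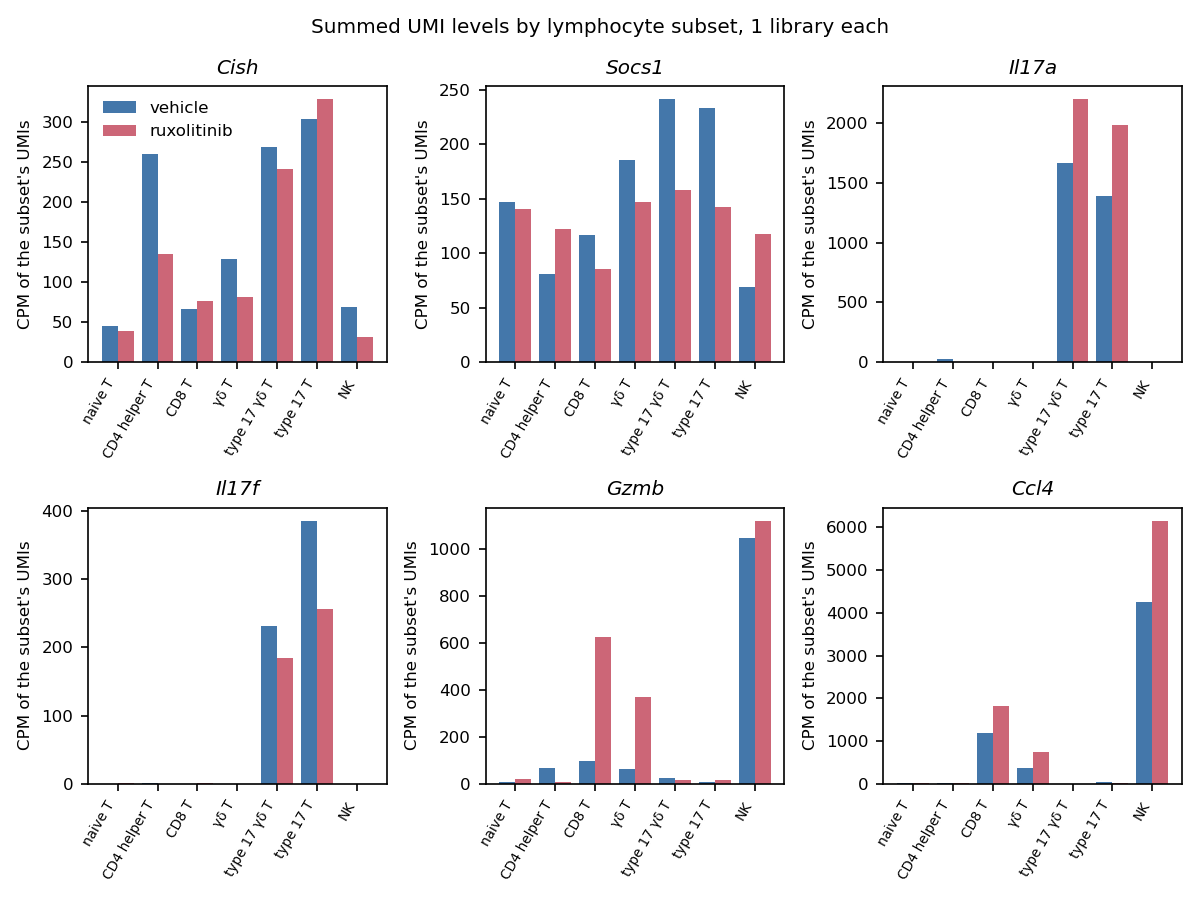
Summed level (vertical axis, CPM, from 0) of 6 genes in 6 T-like subsets and NK-like cells of the vehicle (blue) and ruxolitinib (red) library, 1 library each and so with no error bars. Cish is lower with ruxolitinib in CD4 helper-like cells (259.9 and 135 CPM) but not in type 17 T-like cells (304 and 329 CPM), and Gzmb is higher in CD8-like (96.2 and 626 CPM) and gamma-delta T-like cells (65.0 and 371 CPM).

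Other T-like genes with wide ratios had varied roles, and some of them were leading genes of T-like subsets. Zfp281, a zinc-finger transcription factor, stood at 37.6 CPM with vehicle and 75.8 with ruxolitinib, Dusp10, a phosphatase of stress kinases, at 153 and 255 CPM, and Kif1b, a motor protein, at 85.9 and 139 CPM. On the low side, Tnfsf8, the ligand of CD30, stood at 154 and 90.7 CPM and Pxdc1 at 126 and 65.1 CPM. Dusp10, Tnfsf8 and Pxdc1 were each among the leading genes of a T-like subset described above. Their sums are therefore not independent of the subset shares. Weighted to the vehicle's mix of clusters, the log2 ratios were 0.44 for Dusp10, -0.44 for Tnfsf8 and -0.62 for Pxdc1. Unweighted they were 0.72, -0.74 and -0.90. Zfp281 stood at 0.58 weighted and 0.92 unweighted, and Kif1b at 0.51 and 0.67. The class II gene Cd74 was 116 and 225 CPM in T-like cells, with 15.2% and 19.6% in 1 cell of each library, and the B or plasma-like cells that carry it were more numerous in the ruxolitinib library. Their part in it was not tested.

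NK-like cells were few, and the background was wide: of 4008 measured genes 13.8% were higher and 7.36% lower with ruxolitinib. Ccl5, their leading chemokine, stood at 16442 CPM with vehicle and 11562 CPM with ruxolitinib (0.703, 0.673 to 0.735), and Prf1, the pore former perforin, at 934 and 652 CPM (0.698, 0.579 to 0.841). Ccl4 was 4256 and 6159 CPM and Xcl1 1254 and 1944 CPM, so chemokine genes differed in both directions. Of 18 cytotoxic effectors 1 was higher and 1 lower, with a median of -0.06. Of 12 measured STAT5 targets 4 were lower and 2 higher, with a median of -0.15 against 0.08 for all measured genes. Cish was 69.5 and 32.3 CPM from 18 and 11 UMIs, and its ratio of 0.465 (0.199 to 1.04) spans 1. Rgs16, a brake on G-protein signalling, was 205 and 58.7 CPM, with 37.7% of the vehicle UMIs in 1 cell, and Clec2d, the ligand of an inhibitory NK receptor, was 46.3 and 156 CPM.

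Dendritic-like cells had less RNA of maturation genes and of 4 type I interferon genes with ruxolitinib. Of 5368 measured genes 2.5% were higher and 2.33% lower, with a median log2 ratio of 0.05. In the costimulation and cytokine list 10 of 17 measured members were lower and none higher, with a median of -0.65. Ccr7, which takes mature cells to lymph nodes, stood at 364 CPM with vehicle, 81.4 with ruxolitinib, 104 with panobinostat and 97.6 with givinostat. Ccl22, which attracts regulatory and helper T cells, stood at 269 and 63.5 CPM, with 25.2% and 72.4% of the UMIs in 1 cell, and Ccl17, which binds the same receptor, at 196 and 55.6 CPM. Il12b, a subunit of IL-12 and IL-23, stood at 133 and 2.63 CPM from 252 and 6 UMIs (ratio 0.0198, 0.00720 to 0.0437), and 42.9% of the vehicle UMIs lay in 1 cell. Cd274, which encodes PD-L1, was 51.6 and 24.5 CPM, Relb, an NF-kappaB subunit of maturation, 92.6 and 53.4 CPM, and Cd40, the receptor for T cell help, 42.1 and 26.3 CPM. Cd86 and Cd80, the ligands of CD28, were not past 1.5-fold, at 188 and 171 CPM and at 37.4 and 30.6 CPM.

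Much of that list lay in few cells. Mature dendritic-like cells numbered 3 with ruxolitinib and 12 with vehicle, 1.69% and 6.86% of dendritic-like cells (ratio 0.246, 0.0445 to 0.911), against 1.45% with panobinostat and 1.29% with givinostat. Without them 3 of 15 measured members were lower and the median was -0.17, where 84 of 5366 measured genes were lower (1.57%). With the ruxolitinib clusters weighted to the vehicle's mix 4 of 17 were lower and 1 higher, with a median of -0.03, where 97 of 5368 genes were lower and 182 higher. So weighted, Ccr7 stood at 377 CPM with ruxolitinib, no longer under the vehicle's 364 CPM, and Ccl22 at 114 CPM, still under its 269 CPM. A Ccl22 UMI was found in 4.49% of ruxolitinib and 10.9% of vehicle dendritic-like cells (3.37% and 8.57% thinned), and in 0.114% and 0.111% of proximal tubule-like cells. A Ccr7 UMI was found in 10.1% and 16.0% (6.18% and 11.4% thinned).

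A few type I interferon genes were lower, with and without the mature cells. Of 15 measured ones 4 were lower and none higher, with a median of -0.19, and without the mature cells 3 were lower with a median of -0.18. Of 13 measured interferon-gamma genes none was lower and 1 was higher without the mature cells, with a median of -0.11, against 2 lower and 1 higher of 14 with them. Isg15, a ubiquitin-like interferon product, stood at 79.5 CPM with vehicle, 21.9 with ruxolitinib, 32.8 with panobinostat and 65.5 with givinostat, a ratio of 0.275 (0.196 to 0.382) for ruxolitinib. Irf7, the factor that amplifies interferon production, stood at 83.2, 32.4, 35.2 and 73.6 CPM in the same order (ratio 0.390, 0.292 to 0.517). Ifi27l2a, an interferon-induced gene, was 498 and 278 CPM (0.559, 0.504 to 0.618), and Mx1, an antiviral GTPase, 41.6 and 23.6 CPM (0.569, 0.395 to 0.814). Ruxolitinib thus had the lowest Isg15 and Irf7 of the 4 libraries. An Isg15 UMI was found in 13.5% of ruxolitinib and 22.3% of vehicle dendritic-like cells (7.30% and 14.9% thinned), against 0.739% and 0.556% of proximal tubule-like cells. Over 8 ways of drawing the class the log2 ratio of Isg15 lay between -1.65 and -1.10. The list as a whole was less stable: with cells called one by one its median was 0.01.

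In type 2 conventional dendritic-like cells, which present antigen to CD4 T cells, Isg15 was lower with ruxolitinib. There it stood at 77.4 and 26.0 CPM (0.336, 0.222 to 0.50), Irf7 at 67.5 and 33.1 CPM and Ifi27l2a at 689 and 392 CPM, where 4.45% of measured genes were higher and 3.09% lower. In type 1 cells, which cross-present to CD8 T cells, Irf7 was 66.3 and 32.4 CPM and Ifi27l2a 203 and 92.3 CPM, but Isg15 was low in both libraries, at 15.4 and 15.6 CPM from 10 and 13 UMIs, where 6.45% of measured genes were higher and 5.54% lower. The vehicle Isg15 levels of type 2 and type 1 cells both lie under the 79.5 CPM of all vehicle dendritic-like cells. The few mature vehicle cells thus had a higher level and are part of the difference in the whole class. In plasmacytoid dendritic-like cells, the main interferon producers, Irf7 was 188 and 129 CPM (0.685, 0.479 to 0.978), and none of 8 measured type I genes was past 1.5-fold, where 10.9% of measured genes were higher and 6.62% lower. Of the type I list, 5 of 18 measured genes were lower in type 2 cells, with a median of -0.20, and 2 of 10 in type 1 cells, with a median of 0.00 and 5 of 10 above vehicle; the plasmacytoid median was -0.17. The difference between these subsets was not tested. Cish was also lower in type 2 cells, at 45.9 and 21.1 CPM (0.460, 0.283 to 0.736), while Jak1, Jak2 and Socs3 in all dendritic-like cells were 154 and 158, 132 and 142, and 452 and 460.2 CPM.

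The promoter of Isg15 is shown because its motif is the interferon-stimulated response element, through which type I interferon signalling acts, and those of Cxcl10 and Socs1 because they carry it among genes named here. Sequences are RefSeq, build GRCm38.p6, minus strand, read 5′ to 3′, with matches to GAAANNGAAA in capitals; overlapping matches are joined. The Isg15 stretch is chr4:156200856-156200915, Cxcl10 chr5:92349068-92349127 and Socs1 chr16:10785582-10785641.
Isg15: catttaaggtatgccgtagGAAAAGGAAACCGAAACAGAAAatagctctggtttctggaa
Cxcl10: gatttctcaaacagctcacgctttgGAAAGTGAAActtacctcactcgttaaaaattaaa
Socs1: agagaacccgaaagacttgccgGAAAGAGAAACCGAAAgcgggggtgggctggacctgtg
Isg15 had 3 overlapping matches from 78 to 66 bases before the start, counted at the first base of each match, Cxcl10 had 1 match at 213 bases and Socs1 had 2. Searched on both strands, GAAANNGAAA occurred in the 250 bases upstream in 978 of 32851 promoters (2.98%), in 12 of the 21 type I interferon genes with a promoter in the table and in 11 of 21 interferon-gamma genes. Of the 4 genes lower in dendritic-like cells it was found in Isg15 and not in the Irf7 window, and Ifi27l2a and Mx1 had no entry. The palindrome TTCNNNGAA occurred in 2306 promoters (7.02%) and in 2 of the 11 STAT5 targets with a promoter. A match describes the letters only.

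**Figure D3:**
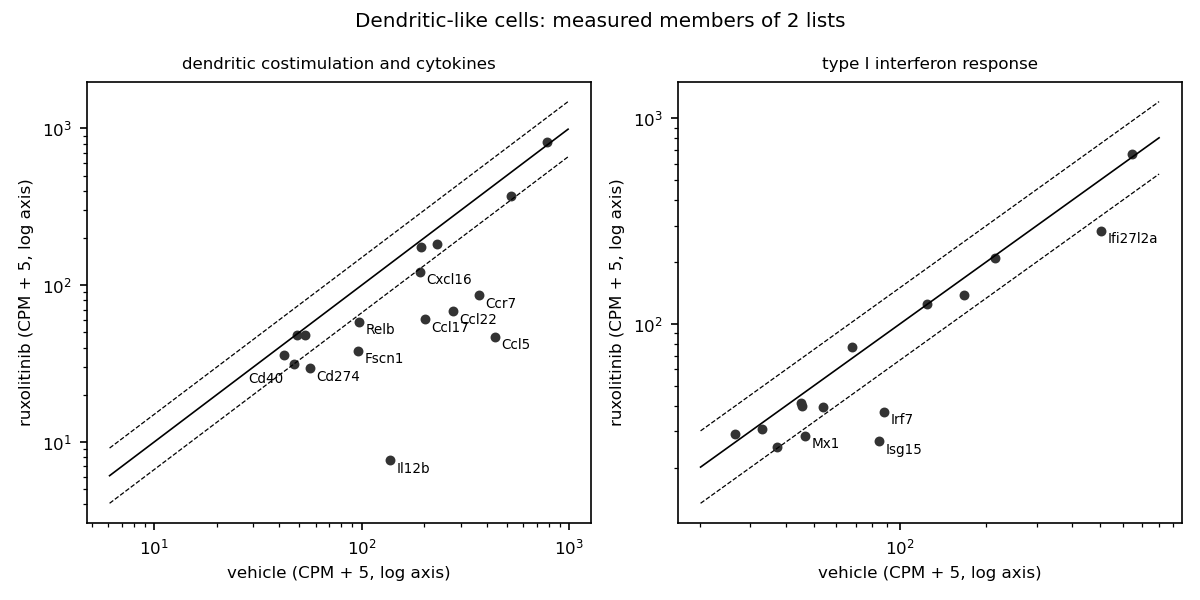
Level with ruxolitinib (vertical) against vehicle (horizontal), both as CPM + 5 on log axes, for the measured members of the costimulation and cytokine list (left, 17 genes) and the type I interferon list (right, 15 genes) in dendritic-like cells; the solid line is equality and the dashed lines are 1.5-fold. Named points lie past 1.5-fold, all of them below the line: 10 on the left, with Il12b lowest at 2.63 CPM, and 4 on the right.

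Class II genes were past 1.5-fold in plasmacytoid and type 2 dendritic-like cells but not in all dendritic-like cells together or in type 1 cells. In all dendritic-like cells Cd74, the class II invariant chain, stood at 20311 CPM with vehicle and 15201 CPM with ruxolitinib (0.748, 0.738 to 0.759). H2-Aa stood at 11003 and 9519 CPM. None of 11 class II genes was past 1.5-fold there, with a median of -0.21. In type 1 cells none of 11 was past it, with a median of -0.08 and 4 above vehicle, and in type 2 cells 2 of 11 were lower: H2-DMb2, a peptide-loading chaperone, at 269 and 164 CPM, and H2-Oa, which modulates it, at 236 and 146 CPM. In plasmacytoid dendritic-like cells 5 of 10 were lower, with a median of -0.59, and Cd74 was 6328 and 3802 CPM (0.601, 0.565 to 0.639), H2-Aa 3220.2 and 1995 CPM, and Siglech, their identity receptor, 2753 and 2588 CPM. Free Cd74 RNA was also more common in the vehicle library, with a UMI in 55.5% of vehicle and 40.6% of ruxolitinib proximal tubule-like cells, at 193 and 128 CPM, levels far under those of dendritic-like cells. On the high side, Hspa1a, an inducible chaperone, was 122 and 244 CPM, Stmn1, a microtubule regulator of dividing cells, 73.2 and 148 CPM, and Rara, a retinoic acid receptor, 38.4 and 70.1 CPM.

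Macrophage-like cells had higher levels of several interferon-gamma genes with ruxolitinib. Of 5473 measured genes 5.34% were higher and 3.4% lower, and of 16 interferon-gamma genes 7 were higher and none lower, with a median of 0.49 against 0.06 for all measured genes. Irf1, an interferon-induced transcription factor, was 58.6 and 105 CPM (1.79, 1.32 to 2.44), and Cxcl10, a chemokine that draws CXCR3-bearing T cells, 33.3 and 119 CPM (3.56, 2.47 to 5.25), with 24.2% of the ruxolitinib UMIs in 1 cell. Isg15 in these cells was 50.5 and 45.0 CPM. Of 21 measured type I interferon genes 4 were higher and none lower, with a median of 0.32, beside the 4 lower and none higher of 15 in dendritic-like cells; the difference between the classes was not tested.

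In the distal convoluted tubule-like cells both calbindin genes and Trpv5 were lower with ruxolitinib, while the segment's transport list as a whole had members in both directions. The class held 43 ruxolitinib and 60 vehicle cells (ratio of shares 0.708, 0.467 to 1.06). Median depth was 8481 UMIs with ruxolitinib and 11203.5 with vehicle, and mitochondrial shares 26.5% and 22.9%, the reverse of the whole libraries; their part in the results was not tested. With so few cells 10.3% of 5513 measured genes were higher and 7.76% lower. S100g, the small cytosolic calcium carrier calbindin-D9k, stood at 21792 CPM with vehicle, 6225 with ruxolitinib, 5988 with panobinostat and 12653 with givinostat, a ratio of 0.286 (0.274 to 0.298) for ruxolitinib. Calb1, calbindin-D28k, stood at 6652, 1691, 2555 and 4488 CPM (0.254, 0.235 to 0.275), and Trpv5, the apical calcium channel, at 94.8, 16.0, 40.3 and 66.4 CPM (0.169, 0.0656 to 0.366). Vehicle was thus the highest of the 4 libraries for all 3 genes. Kl, the FGF23 coreceptor klotho, was 1436 and 522 CPM, and Slc8a1, a basolateral sodium-calcium exchanger, was 303 and 197 CPM. Slc12a3, the cotransporter NCC that thiazides block, was 6831 and 8507 CPM (1.25, 1.19 to 1.30), Fxyd2, a sodium pump subunit, 7387 and 8583 CPM, and Trpm6, the magnesium channel, 131 and 105 CPM. Of 28 measured transport genes of this segment 2 were higher and 4 lower, with a median of 0.00. The higher ones were Egf, at 752 and 1396 CPM, and Trpm7, at 493 and 785 CPM, but Egf was lower, with log2 ratios of -0.24 and -0.42, under a stricter cell filter and under clustering with that filter.

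The class has 2 clusters, one led by Slc12a3 with 33 ruxolitinib and 37 vehicle cells and one led by Calb1 with 10 and 23, and the calbindins were lower in both. In the Slc12a3 cluster Calb1 stood at 1933 CPM with vehicle and 142 CPM with ruxolitinib (0.0737, 0.0540 to 0.0983), S100g at 3429 and 1464 CPM (0.427, 0.385 to 0.473), and Slc12a3 at 9625 and 9184 CPM (0.954, 0.910 to 1.00). In the Calb1 cluster S100g stood at 44056 and 23895 CPM (0.542, 0.518 to 0.567), Calb1 at 12373 and 7440 CPM (0.601, 0.554 to 0.652), Trpv5 at 189 and 75.5 CPM and Slc12a3 at 3443 and 5995 CPM. S100g and Calb1 took part in the clustering, so their levels in a cluster they lead are a description. Weighted to the vehicle's mix of the clusters, ruxolitinib stood at 11603 CPM for S100g and 3441 CPM for Calb1, log2 ratios of -0.91 and -0.95 against -1.81 and -1.97 unweighted. Calling cells one by one, from markers that include neither, gave 70 vehicle and 66 ruxolitinib cells, with S100g at 12561 CPM with vehicle and 4640.0 CPM with ruxolitinib and Calb1 at 4930 and 2025 CPM. Over 8 ways of drawing the class the log2 ratio was between -2.51 and -1.02 for S100g, between -4.27 and -1.28 for Calb1 and between -0.41 and 0.32 for Slc12a3. Free RNA was low beside these levels: S100g in T-like cells was 133 CPM with vehicle and 87.4 CPM with ruxolitinib.

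In the same class 5 of 8 measured principal cell genes were lower, Calb1 among them, where 7.76% of all measured genes were lower. Scnn1g, a subunit of the epithelial sodium channel, was 152 and 43.5 CPM, and Hsd11b2, which shields the mineralocorticoid receptor from glucocorticoid, 422 and 101 CPM. Scnn1g and Hsd11b2 are markers that named the principal or connecting tubule-like class, so their level here depends on where the classes were divided. In the Slc12a3 cluster 2 of 7 were lower and 1 higher, with a median of 0.17, where 11.9% of 4901 measured genes were lower. In the Calb1 cluster 6 of 8 were lower, with a median of -0.71, where 25.4% of 2382 measured genes were lower and the median of all was -0.19. The ruxolitinib class held 10 cells of the Calb1 cluster against 23 with vehicle. Weighted to the vehicle's mix of clusters, the ruxolitinib levels were 82.8 CPM for Scnn1g and 146 CPM for Hsd11b2, still under those of vehicle. Gadd45g, a stress-response gene, was higher at 54.8 and 227 CPM (4.14, 2.85 to 6.11), with 35.4% of the ruxolitinib UMIs in 1 cell, and its log2 ratio lay between 1.67 and 2.83 over the 8 ways of drawing the class. Panobinostat and givinostat stood at 209 and 165 CPM, so vehicle was the lowest of the 4.

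Principal or connecting tubule-like cells, which set final sodium and water output, were 58 with ruxolitinib and 111 with vehicle. The shares were 1.46% and 2.82% (ratio 0.516, 0.369 to 0.715), with 1.09% for panobinostat and 1.04% for givinostat. Because S100g and Calb1 help lead one of the clusters, the number was also taken cell by cell from markers without them and without Klk1, which gave 70 ruxolitinib and 126 vehicle cells. Of 5911 measured genes 4.5% were higher and 2.55% lower. S100g stood at 23895 CPM with vehicle and 12645 CPM with ruxolitinib (0.529, 0.519 to 0.540), and Klk1, tissue kallikrein of the connecting tubule, at 16052 and 8741 CPM (0.545, 0.532 to 0.558). Calb1, at 4432 and 4581 CPM, and Trpv5, at 168 and 169 CPM, were near equal in these clusters, but Calb1 was under vehicle in each of the 7 other ways of drawing the class. Over the 8 ways of drawing the class the log2 ratio lay between -1.96 and -0.92 for S100g, between -2.08 and -0.88 for Klk1 and between -0.64 and 0.05 for Calb1.

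Water channel genes were close: Aqp2, the vasopressin-regulated channel, stood at 3075 and 2785 CPM, and Aqp3, its basolateral partner, at 1028 and 1076 CPM. Sgk1, a kinase induced by aldosterone and glucocorticoid that raises sodium channel activity, was 131 CPM with vehicle, 279 with ruxolitinib, 327 with panobinostat and 174 with givinostat, a ratio of 2.13 (1.78 to 2.54) for ruxolitinib. In the cluster led by Kcne1 Sgk1 stood at 169 and 300.4 CPM (1.77, 1.43 to 2.20), and in that led by Aqp4 at 72.4 and 254 CPM (3.50, 2.51 to 4.95), so it was higher in both. S100g was lower in both, at 35940 and 21175 CPM and at 5450 and 2754 CPM. Klk1 was lower in the Kcne1 cluster, at 24666 and 13191 CPM, and higher in the Aqp4 cluster, at 2860 and 3581 CPM. Of 14 measured principal cell transport genes 1 was higher and none lower, with a median of -0.04.

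**Figure D4:**
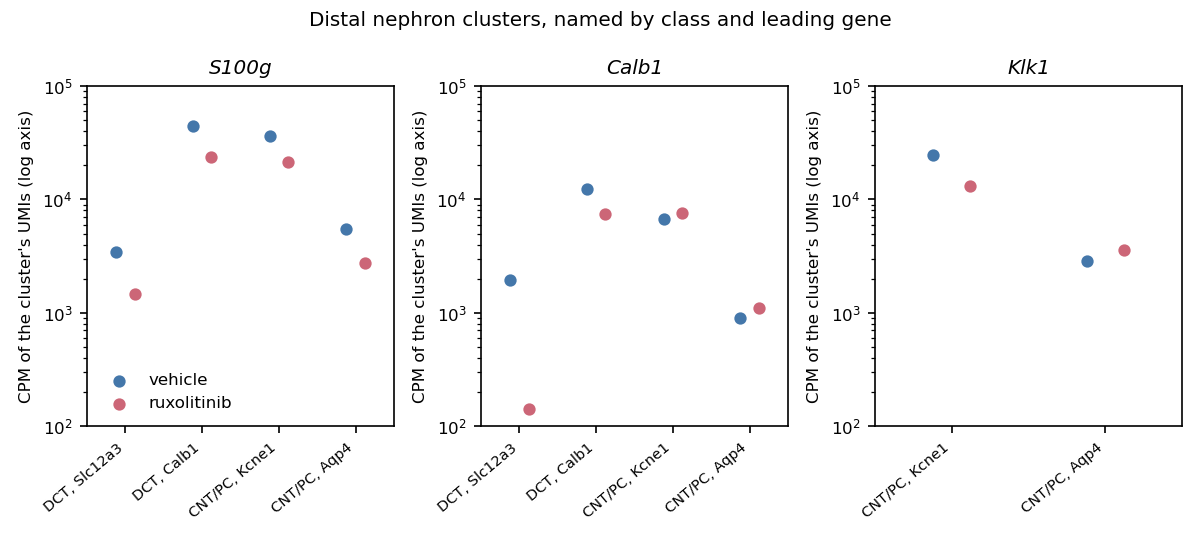
Summed level (vertical log axis, CPM) of S100g, Calb1 and Klk1 in the distal convoluted tubule-like (DCT) and principal or connecting tubule-like (CNT/PC) clusters, named by their leading gene, for vehicle (blue) and ruxolitinib (red), 1 library each. S100g is lower with ruxolitinib in all 4 clusters, whereas Calb1 is lower in the DCT clusters and slightly higher in the CNT/PC clusters.

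Injury genes in principal or connecting tubule-like cells went in both directions, with 6 of 15 measured genes higher and 3 lower. Lcn2, the iron-binding injury protein NGAL, was 626 CPM with vehicle and 318 with ruxolitinib (0.507, 0.446 to 0.575). Krt19, a keratin on the injury list, was 109 and 311 CPM, with 43.6% of the ruxolitinib UMIs in 1 cell. It was also among the leading genes of the Aqp4 cluster, which held 31 ruxolitinib and 49 vehicle cells. The Kcne1 cluster held 27 and 62, and the part of this mix in Krt19 was not tested. Hspb1, a small chaperone not on the injury list, was 51.3 and 173 CPM, with 49.1% of the ruxolitinib UMIs in 1 cell.

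Immediate early genes, which dissociation of tissue can also induce, were lower in the distal convoluted tubule-like sum, with 15 of 22 lower and 1 higher and a median of -1.07. Fos was 904 CPM with vehicle and 130.5 CPM with ruxolitinib, Jun 1004 and 455 CPM and Atf3 270 and 25.2 CPM. Few cells carried this: 33.4% of vehicle and 66.7% of ruxolitinib Fos UMIs were in 1 cell, the list made up 0.243% of UMIs in the median vehicle cell and 0.251% in the median ruxolitinib cell, and 1.67% and 0.527% at the 90th percentile in that order. With cells called one by one 7 of 22 were lower and the median was -0.22. In principal or connecting tubule-like cells 12 of 21 were lower with a median of -1.18, but the median was 0.30, 0.04 and 0.11 under 3 other ways of drawing the class, so no direction is given.

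Loop of Henle-like cells, which dilute the urine and make uromodulin, numbered 268 with ruxolitinib and 227 with vehicle (ratio of shares 1.17, 0.973 to 1.40). Their ruxolitinib and vehicle libraries also differed in haemoglobin RNA, 0.175% and 0.00169% of UMIs, in mitochondrial share, 8.52% and 12.3%, in median depth, 9322 and 10740 UMIs, and in proximal tubule genes, of which 5 of 8 measured were lower with a median of -0.92. The clusters of the class differed in cell numbers in both directions. Those led by Cxcl12 and Tmem207 held 45 and 40 ruxolitinib and 63 and 54 vehicle cells. Those led by Arc and Apoc1 held 44 and 46 ruxolitinib and 29 and 20 vehicle cells. Clusters led by 2200002D01Rik and Kcnh1, left unnamed by the marker rule but kept in the class, held 39 and 38 ruxolitinib and 19 and 11 vehicle cells. The part of all these differences in the results was not tested. Of 6206 measured genes 3.08% were higher and 1.92% lower, with a median of 0.08. Hspa5, the endoplasmic reticulum chaperone BiP, was 424 CPM with vehicle, 874 with ruxolitinib, 444 with panobinostat and 550.5 with givinostat, a ratio of 2.06 (1.92 to 2.22) for ruxolitinib. It was higher in every cluster of the class that held at least 10 cells of each library, and over the 8 ways of drawing the class the log2 ratio lay between 0.99 and 1.07. Dnajb9, a cochaperone of BiP, was 96.4 and 187 CPM (1.94, 1.67 to 2.26). Hspa5 and Dnajb9 were named for their high ratios, and no list of unfolded protein response genes was counted. Defb1, the epithelial antimicrobial defensin, was 969, 1958, 1406 and 1607 CPM in the same order of libraries (2.02, 1.93 to 2.12), with vehicle lowest, and its log2 ratio lay between 0.54 and 1.01 over the 8 ways, under 1.5-fold when cells were called one by one. Bmp4, a growth factor, was lower at 73.0 and 28.4 CPM (0.388, 0.296 to 0.506), as was Fgf9, another growth factor, at 128 and 57.1 CPM.

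None of 19 measured thick limb genes was past 1.5-fold, with a median of -0.03: Umod, uromodulin, was 22599 and 17238 CPM (0.763, 0.754 to 0.772), and Slc12a1, the loop diuretic target NKCC2, 4309.7 and 3720.4 CPM. Of 13 injury genes 4 were higher and 1 lower, with a median of 0.34; Spp1, osteopontin, was 17584 and 30338 CPM (1.73, 1.71 to 1.75) but had log2 ratios of 0.32 and 0.37, under 1.5-fold, at Leiden resolution 1.5 and cell by cell, and 0.44 when weighted to the vehicle's mix of clusters. Also higher were Clu, clusterin, 579 and 1188 CPM, and Lcn2, 679 and 1217 CPM, while S100a6, a calcium-binding protein, was lower at 102 and 28.7 CPM. With the ruxolitinib clusters weighted to the vehicle's mix none of the 13 was higher and 2 were lower, with a median of 0.11. So weighted, 184 of 6206 measured genes were higher and 75 lower, with a median of 0.07. Socs3, the gp130 feedback gene, was 310 and 319 CPM and Stat3 148 and 167 CPM in these cells.

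In the whole libraries 40 of 6328 measured genes were higher (0.632%) and 34 lower (0.537%). The lowest ratios were led by distal genes. S100g was 2061 CPM with vehicle and 634 with ruxolitinib (0.308, 0.304 to 0.312), Klk1 1849.7 and 734 CPM and Calb1 459 and 209.6 CPM. These sums depend on the level in each class and on the number of cells of each class, and the part of each was not tested. Bpgm, a red cell enzyme, was higher at 31.9 and 75.2 CPM, beside the larger number of erythroid-like cells.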

How the data were processed

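The assay was droplet RNA sequencing of single kidney cells. The values are raw UMI counts (16706 genes, 16003 barcodes) that the authors deposited, made with Cell Ranger 3.0.1 on mm10 per the submitters' processing notes; other steps are not given in the sources used here. Cells with 200 or more genes of all 4 libraries were clustered (scanpy 1.11.5, 2000 variable genes, 30 components, 15 neighbours, Leiden resolution 1), leukocytes and distal nephron again on their own. Clusters were named from listed markers, at least 3 detected, with naming thresholds set after the data were seen. Scrublet marked 0.0254% of vehicle and 0.302% of ruxolitinib cells, so it has not worked and doublets were kept. UMIs were summed per class. Ratios have exact conditional binomial and shares Clopper-Pearson 95% intervals. Their coverage was checked only on simulated independent counts, which is the model they assume. That check cannot speak for UMIs clumped in few cells. No test was possible with 1 library a group. Named genes were the 8 highest and 8 lowest log2 ratios per class with a mean of at least 50 CPM, after excluding technical and sex-linked genes, and of each list the most abundant members and any past 1.5-fold; not every such gene is printed. The class minimum was 50 cells a library; distal convoluted tubule and type 17 T, with 40 to 49, were added after cell numbers were known. Members and lists were chosen with earlier results of these data known. Some results are not reported here. Ifng, Jak1, Jak2, Socs3, Il23r, Ccr6, Sgk1 per cluster, S100g and Calb1 in each cluster, and the subset levels were chosen after values were seen. Alternatives covered scaling (TMM, edgeR 4.0.16), pseudocount, filters, clustering and cluster weighting.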

Additional observations from a re-analysis of the deposited data

Results flagged for a closer look

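The gene minimum left out 115 barcodes of the ruxolitinib library and none of the vehicle library. Haemoglobin genes held 93.4% of the UMIs in those 115 barcodes. The panobinostat library lost 109 barcodes, with 91.5% haemoglobin UMIs, and the givinostat library 2, with 92.4%. They enter no comparison.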

How the results depend on the processing

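No paired analysis was possible because each group has 1 library. Of 418 alternative gene levels 289 stayed within the counting interval, 123 moved and 6 reversed. Of 172 list medians 134 stayed within 0.1, 33 moved and 5 reversed. A change of sign was called reversed only where the main gene ratio was past 1.5-fold or the main list median past 0.1. Other changes of sign are not among the reversed. Slc12a3 in distal convoluted tubule-like cells, with a main log2 ratio of 0.32, counts as moved at -0.41 under strict clustering. Of 94 counts 49 stayed within 1.5 times. Of 87 class shares 86 stayed, and all 35 leukocyte subset shares did. Not every clustering gave every subset: the cell by cell call gave none, resolutions 0.5 and 1.5 named both gamma-delta clusters alike, and sub-clustering at 0.5 gave no mature dendritic-like cluster. The cause of the differences below was not tested, except that filters change the number of genes tested. The loop of Henle-like share ratio was 0.927 at Leiden resolution 1.5. With TMM scaling 51 T-like genes were higher, and with totals without mitochondrial UMIs 184 loop of Henle-like genes were lower. Counts higher and lower are given next as pairs. With a pseudocount of 20 they were 30 and 22 (T-like), 364 and 195 (NK-like), 39 and 66 (dendritic-like), 73 and 73 (loop of Henle-like), 270 and 208 (distal convoluted tubule-like) and 84 and 49 (principal or connecting tubule-like), and 19 higher in the whole library. With no filter they were 88 and 56 (whole library), 263 and 117 (T-like), 3439 and 2136 (NK-like), 572 and 406 (dendritic-like), 461 and 407 (loop of Henle-like), 1848 and 1570 (distal convoluted tubule-like) and 866 and 639 (principal or connecting tubule-like). With a mean of at least 50 CPM they were 21 and 20, 34 and 23, 290 and 167, 33 and 47, 86 and 45, 147 and 146, and 83 and 43, in the same order. Weighted to the vehicle's mix of clusters 20 T-like and 75 loop of Henle-like genes were lower. The type 17 median in T-like cells was 0.018 when weighted, reversed from -0.20, and the naive and cytotoxic medians were 0.33 and 0.18. The costimulation median in dendritic-like cells was -0.028 when weighted, with Ccr7 reversed to 0.049, -0.17 without mature cells and -1.03 at 50 CPM. The type I interferon median there was -0.32 with no filter, -0.072 at resolution 1.5 and 0.0050, reversed, cell by cell. The loop of Henle-like injury median was 0.11 weighted, 0.12 at resolution 1.5, 0.19 under strict clustering and 0.19 cell by cell, and the thick limb median 0.10 at resolution 1.5. The distal convoluted tubule transport median was -0.15 with the strict cell filter (500 genes, 1000 UMIs, at most 20% mitochondrial), -0.13 when clustered under it, -0.14 with 2 libraries clustered and -0.27 cell by cell, and Egf there reversed to -0.24 and -0.42 under the first 2. The immediate early median in distal convoluted tubule-like cells was -1.20 with the strict filter, -1.46 weighted, -1.25 without the top cell, -1.27 and -1.38 at resolutions 0.5 and 1.5, -1.53 and -1.59 at sub-clustering 0.5 and 1.5, -1.50 under strict clustering, -0.93 with 2 libraries and -0.22 cell by cell. In principal or connecting tubule-like cells it was -0.97 with the strict filter, -1.30 and -0.76 with pseudocounts of 1 and 20, -1.30 at 50 CPM, -0.68 without the top cell, -0.81 at sub-clustering 0.5 and -0.25 under strict clustering; it reversed to 0.30, 0.036 and 0.11 at sub-clustering 1.5, with 2 libraries and cell by cell, with Fos at 0.39, 0.24 and 0.27. Depth limits the small classes, where many genes rest on few UMIs.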
